A study of Danio rerio and Aquarana catesbeiana with 12 samples.

Results

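The pigmented sheet of cells behind the photoreceptors, the retinal pigment epithelium (RPE), was compared between thyroid hormone and vehicle treatment in the zebrafish, Danio rerio. The comparison comprised all 6 zebrafish libraries of a series of 12 libraries, 3 from fish given thyroid hormone for 3 weeks and 3 from fish given a vehicle control for the same time. All 18315 transcript records with a name were compared, and an unnamed entry that holds the column sums was dropped. The labels give no strain, age, hormone form or dose for either group, and do not say how many fish went into a sample. Nor do they state that the replicates are separate fish, so each p-value reflects only how far these samples spread, and that spread may be technical. Cyp27c1, named in the title of the series, is an enzyme that converts vitamin A1 to vitamin A2; the question was which RPE transcripts differed with hormone.

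The RPE takes up vitamin A, stores it as esters and returns 11-cis retinal to the photoreceptors. In fish and amphibians the chromophore can be built on vitamin A1 or on vitamin A2, which carries an extra double bond and shifts visual pigments to longer wavelengths. Thyroid hormone acts through nuclear receptors that bind DNA with or without hormone and recruit corepressors or coactivators. Deiodinases activate or inactivate the hormone within tissues.

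Library totals were 6647597, 12530697 and 11161495 counts with hormone and 11739178, 10668014 and 10582772 with vehicle. All 12 RPE markers examined had counts in all 6 libraries, among them rpe65a, dct and pmela. Their summed level was 19790, 54160 and 44740 CPM (a count per 1000000 of its library's TMM-scaled total) with hormone, against 16760, 16160 and 17180 with vehicle. The gene rpe65a alone made up 12450, 32330 and 26090 CPM of the hormone sums. As a mean, the 12 markers stood at 8.62, 10.1 and 9.85 log2 CPM with hormone, against 9.1, 9.08 and 9.19 with vehicle. By that mean hormone library 1 was the lowest. Rod markers summed to 38190 to 46690 CPM with hormone and 52080 to 64520 with vehicle, so the dissected tissue also held photoreceptor RNA. Their mean log2 CPM overlapped between groups, at 10.3, 9.43 and 9.7 with hormone and 9.97, 10.1 and 9.74 with vehicle. The mean level of 45 inner retina genes was 5.15, 3.90 and 4.12 log2 CPM with hormone and 4.83, 4.67 and 3.77 with vehicle, highest in hormone library 1, which also had the fewest counts. The first principal component, with 50.3% of the variance, ordered the libraries as that inner retina level did and did not separate the groups. The second, with 20.7%, separated them, at 21.4, 29.5 and 33.5 with hormone and -29.3, -29.3 and -25.8 with vehicle. In such bulk samples, fewer cells of a type and less RNA per cell cannot be told apart. The part of photoreceptor RNA in the results was not tested. For the inner retina level, the numbers of calls of a fit with it as a covariate stand beside those of the other tests.

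**Figure D1:**
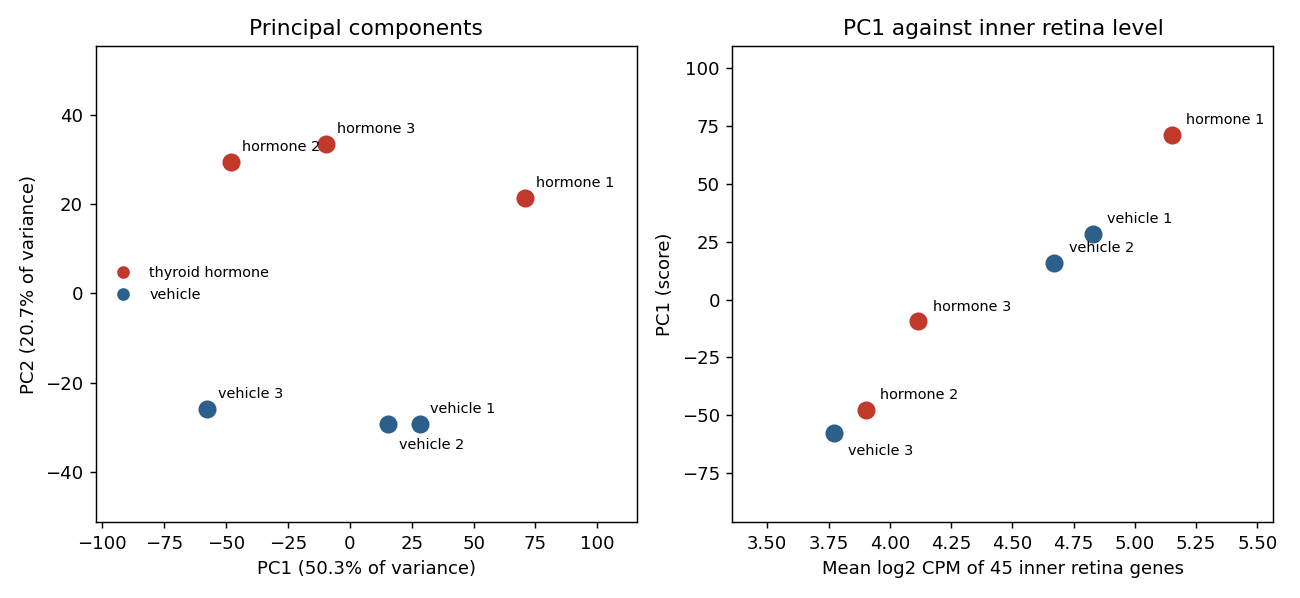
Left, scores of the 6 libraries on the first and second principal component of log2 CPM; right, the first component against the mean log2 CPM of 45 inner retina genes. Hormone libraries are red and vehicle libraries blue; the groups part on the second component, while the first follows the inner retina level from 3.77 to 5.15.

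At an adjusted p under 0.05 the quasi-likelihood test of edgeR called 1 record, 0.00546% of the 18315, and that record, dhrs12la, rose with hormone. No record fell by that test. Without adjustment, 678 records were higher (3.7%) and 582 lower (3.18%) at a p under 0.05, and at an adjusted p under 0.1 it had 9 higher (0.0491%) and 6 lower (0.0328%). DESeq2 called 166 records higher (0.906%) and 126 lower (0.688%), and the edgeR likelihood ratio test 123 (0.672%) and 94 (0.513%). The authors' deposited table marks 96 higher (0.524%) and 75 lower (0.41%). With the inner retina level as a covariate edgeR called 232 higher (1.27%) and 214 lower (1.17%), and 236 records were called in the same direction by both DESeq2 and the covariate fit. Without hormone library 1 edgeR called 79 higher (0.431%) and 26 lower (0.142%), and without any other single library it called 0. All 3 hormone libraries stood above all 3 vehicle libraries for 1257 records (6.86%) and below them for 1172 (6.4%). Large differences were few: 44 records were higher by 2 or more on the log2 scale and 35 lower by as much, and 9 and 4 reached 3 in size. The records described next mostly missed the threshold of the main test, so their levels are given as values. "Passed DESeq2" marks records under an adjusted p of 0.05 in that test, but not every such record is marked. Among those unmarked below, rpe65a, gsdf, wsb1, kitlga, ak4, ltbp3, smad3b, slc4a1a, mipepb and letm2 also passed, while smad3a did not. Some unchanged records passed it too in the simulated counts described under data processing. Some records past DESeq2 missed the covariate fit, with edgeR adjusted p of 0.0551 for rpe65a, 0.0698 for wnt7ba and 0.0624 for gngt1.

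**Figure D2:**
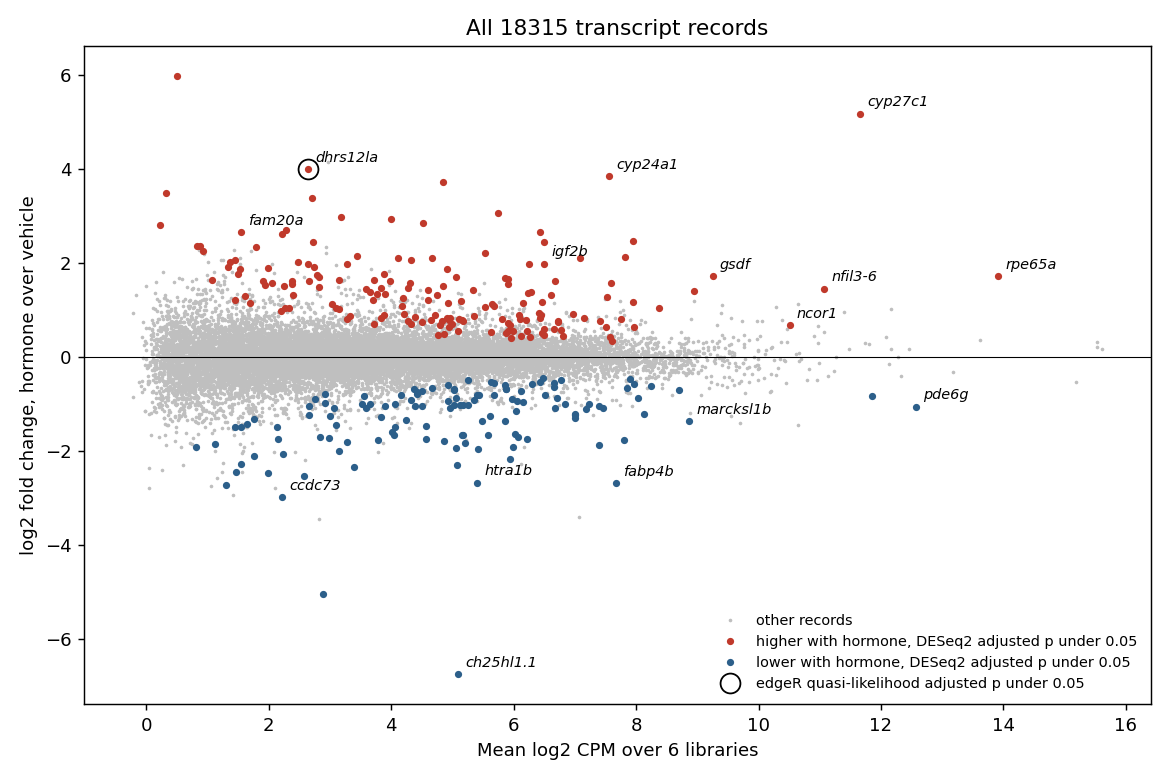
The log2 fold change of hormone over vehicle against the mean log2 CPM for all 18315 records, with records past DESeq2 in red (higher with hormone, 166) and blue (lower, 126). The ring marks dhrs12la, the record past the edgeR quasi-likelihood test; cyp27c1 lies far above the other abundant records.

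Of the 200 most abundant records, cyp27c1 had the largest log2 fold change. This P450 gene, whose enzyme makes vitamin A2, had 24439, 108297 and 65552 counts with hormone, against 2308, 2406 and 1236 with vehicle. That is 3261, 8943 and 6751 CPM with hormone, against 183, 217 and 124 CPM with vehicle, and the groups were far apart. The fitted log2 fold change was 5.18 (SE 0.51, edgeR adjusted p = 0.0571), and the alternatives gave adjusted p between 6.79e-31 (DESeq2) and 0.46 (edgeR without vehicle library 1). A two-sided exact permutation test of the 3 against 3 libraries gave p = 0.1, the smallest this design allows. Per kilobase of transcript the mean level of cyp27c1 was 2426 CPM with hormone and 67.0 with vehicle. The gene rpe65a, whose isomerase makes 11-cis retinol, had a mean level of 13640 CPM per kilobase with hormone and 4115 with vehicle.

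By library, rpe65a stood at 12450, 32330 and 26090 CPM with hormone, against 7480, 7211 and 6688 CPM with vehicle, a log2 fold change of 1.73 (SE 0.46, edgeR adjusted p = 0.426). Its lowest value among the hormone libraries, in library 1, was still above all vehicle libraries. Hormone library 1 was also the lowest of its group for the carrier gene rlbp1b, at 1858, 4855 and 3968 CPM with hormone, against 1876, 1804 and 1841 CPM with vehicle, where the groups overlapped. The gene lratb.1 (lratb in the deposited table), related to the gene of the retinol-esterifying enzyme, stood lower and passed DESeq2. It stood at 6.67, 18.7 and 15.3 CPM with hormone, against 59.5, 50.4 and 46.5 CPM with vehicle. Smaller differences without overlap were seen for the retinol dehydrogenase gene rdh10a (log2 fold change 0.86) and the retinoic acid-binding protein gene crabp1a (0.94), neither past DESeq2. Of 44 visual cycle genes 26 had positive and 18 negative log2 fold changes, with a median of 0.28 against 0.01 over all records.

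Among short-chain dehydrogenases and reductases, the family that also holds the retinol dehydrogenases, the gene past the main test was dhrs12la (flj13639 in the table). It stood at 11.9, 11.6 and 11.5 CPM with hormone, against 0.555, 0.812 and 0.8 CPM with vehicle, a log2 fold change of 4 (SE 0.23, edgeR adjusted p = 0.0175). Without any one of the 5 libraries other than hormone library 1 the call was lost, at adjusted p of 0.0956 to 0.297. The vehicle values are only a few times the 0.256 to 0.283 CPM that 3 counts make up of the unscaled totals of those libraries. The gene rdh20 (LOC555864) stood at 9.74, 18.7 and 17.2 CPM with hormone, against 2.93, 3.7 and 5 CPM with vehicle, and hsd17b10, for a mitochondrial enzyme, at 37.4, 37.9 and 37 CPM with hormone, against 23.7, 23 and 25 CPM with vehicle. Both passed DESeq2, and neither had overlapping groups. The genes hsd11b2 and hsd11b1la stood lower and passed DESeq2. For hsd11b2, which inactivates cortisol, the levels were 33.2, 23.9 and 22.4 CPM with hormone, against 134, 54.9 and 111 CPM with vehicle. For hsd11b1la (hsd11b3a in the table), named as a relative of the activating enzyme, they were 7.07, 11.2 and 10.2 CPM with hormone, against 20.5, 17.1 and 21.5 CPM with vehicle. Of 47 genes of the family, 7 stood above vehicle in every hormone library and 6 below, against 6.86% and 6.4% of all records.

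Of 6 vitamin D genes, 2 stood above vehicle in every hormone library and 2 below, 66.7% in all, against 13.3% of all records. The gene cyp24a1, whose enzyme breaks down active vitamin D, stood at 159, 367 and 526 CPM with hormone, against 12, 15 and 46.6 CPM with vehicle. The groups did not overlap, but the values spread widely within each, and a log2 fold change of 3.84 had an SE of 0.69 and an edgeR adjusted p of 0.228. The vitamin D receptor gene vdrb had a log2 fold change of 0.52, with groups that nearly met. Its levels were 19.1, 21.55 and 21.9 CPM with hormone, against 11.5, 13.5 and 18.8 CPM with vehicle. The log2 fold change of cyp27a1.1 (cyp27a7 in the table), from the sterol 27-hydroxylase family, was -0.69. The gene cyp27a3 (si:dkey-91i10.3), of the same family and with 2 records, stood at 2.27, 2.48 and 2.58 CPM with hormone, against 3.57, 3.88 and 4.2 CPM with vehicle. Of these 3 only cyp27a1.1, at 15.2, 16.5 and 15.2 CPM with hormone, against 26.2, 24.4 and 25.1 CPM with vehicle, joined cyp24a1 in passing DESeq2.

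The lowest log2 fold change of all records belonged to ch25hl1.1, named as cholesterol 25-hydroxylase like; in mammals the related enzyme makes 25-hydroxycholesterol. It had 0, 19 and 0 counts in the hormone libraries, against 1101, 627 and 570 in the vehicle libraries. The single hormone library with counts stood at 1.57 CPM, 36.0-fold lower than the lowest vehicle library. In hormone libraries 1 and 3 a count of 0 allows a level of up to 0.451 and 0.269 CPM of the unscaled total. The fitted value of -6.75 (SE 0.89) depends on the prior count, and with 1 library left out it lay between -12.4 and -6.2. The edgeR adjusted p of ch25hl1.1 was 0.114, and it passed DESeq2. The gene nceh1b.2 (LOC797436), related to a cholesteryl ester hydrolase and chosen with its values known, stood at 47.5, 157 and 81.6 CPM with hormone, against 11, 16.5 and 6.4 CPM with vehicle. Cholesterol synthesis and uptake genes as a list had 16 positive and 18 negative log2 fold changes. None was past DESeq2, against 0.906% of all records higher and 0.688% lower. The fatty acid-binding protein gene fabp4b (fabp11b in the table) stood at 18.9, 71.9 and 74.6 CPM with hormone, against 376, 331 and 350.4 CPM with vehicle, lower in every hormone library and past DESeq2. Its paralog fabp4a (fabp11a) stood the other way, at 15.3, 10.2 and 46.9 CPM with hormone, against 4.92, 8.48 and 6.9 CPM with vehicle, and did not pass DESeq2.

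**Figure D3:**
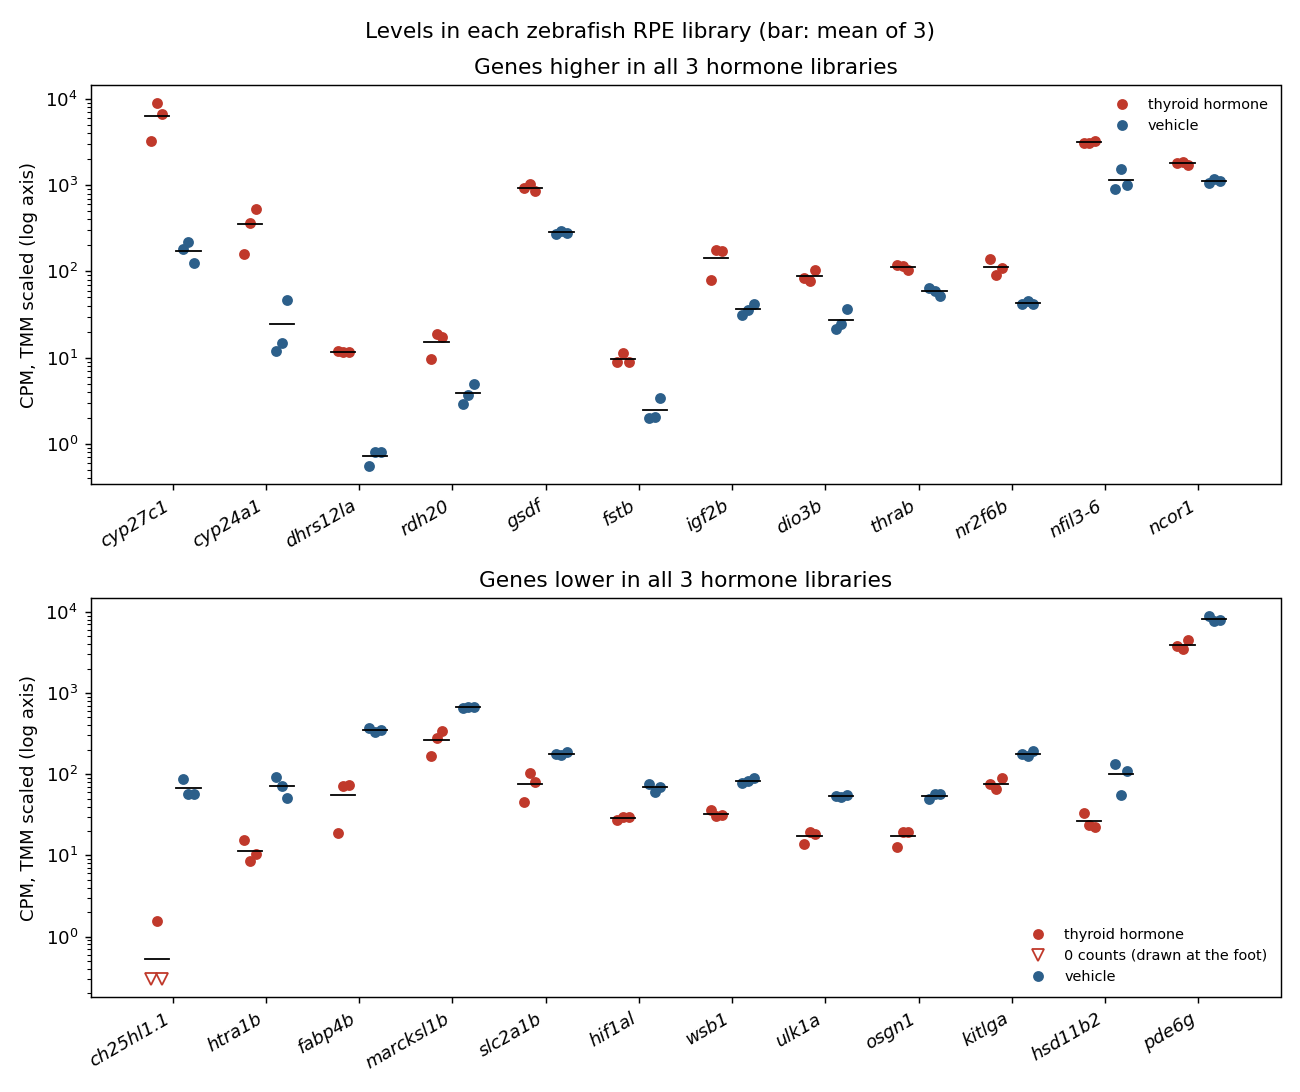
Level in CPM (log axis) of 24 genes in each library, hormone in red and vehicle in blue, with the mean of 3 as a bar; open triangles stand for 0 counts. The groups of each gene are apart, by a wide margin for cyp27c1 and ch25hl1.1 and by less for ncor1 and pde6g.

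Of 22 genes for thyroid hormone receptors, cofactors and deiodinases, 5 stood higher and passed DESeq2 and 0 stood lower and passed, against 0.906% and 0.688% of all records. As a whole the list had 12 positive and 10 negative log2 fold changes, with a median of 0.06 against 0.01 over all records. The deiodinase gene dio3b (LOC798872), whose enzyme inactivates the hormone, stood at 83.3, 76.8 and 105 CPM with hormone, against 21.2, 24.6 and 36.6 CPM with vehicle (log2 difference 1.69, SE 0.24, edgeR adjusted p = 0.133). The receptor gene thrab stood at 118, 114 and 103 CPM with hormone, against 64.6, 59 and 52.3 CPM with vehicle, and the receptor genes thraa and thrb had log2 fold changes of 0.83 and 0.81. For the corepressor gene ncor1 the levels were 1804, 1843 and 1734 CPM with hormone, against 1072, 1174 and 1119 CPM with vehicle, with little spread in either group. On the lower side, outside this list, stood wsb1, whose protein is known in mammals to mark the activating deiodinase for degradation. It stood at 35.9, 30.6 and 31.7 CPM with hormone, against 77.8, 82 and 90.6 CPM with vehicle (log2 difference -1.35, SE 0.13, edgeR adjusted p = 0.0571). The activating deiodinase gene dio2 itself stood at 7.34, 3.06 and 4.12 CPM with hormone, against 14.8, 8.39 and 5.3 CPM with vehicle, where the groups overlapped. The retinoid X receptor gene rxraa, for a common partner of the thyroid receptors, stood lower in every hormone library (22.9, 25.8 and 22.4 CPM with hormone, against 30.4, 30.6 and 39.1 CPM with vehicle) and did not pass DESeq2.

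Secreted factors and their modulators stood apart in both directions. The gene gsdf (LOC100537308), for a TGF-beta family factor best known from fish gonads, stood at 916, 1021 and 864 CPM with hormone, against 274, 297 and 280.2 CPM with vehicle (log2 difference 1.72, SE 0.16, edgeR adjusted p = 0.0571). The follistatin gene fstb, for a secreted inhibitor of activins, has 2 records, and both passed DESeq2; the more abundant stood at 8.94, 11.4 and 8.96 CPM with hormone, against 1.98, 2.08 and 3.4 CPM with vehicle. The gene ltbp3, whose protein holds latent TGF-beta in the matrix, stood at 53.1, 136 and 134 CPM with hormone, against 38.3, 37.2 and 50.4 CPM with vehicle, with hormone library 1 close to the vehicle range. The TGF-beta signal transducer genes smad3a and smad3b had log2 fold changes of -0.41 and -0.57. Of 60 genes of that family 11 stood above vehicle in every hormone library and 2 below, against 6.86% and 6.4% of all records. Their median log2 fold change was -0.02, and 0.03 without hormone library 1.

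The growth factor gene igf2b stood at 78.6, 178 and 174 CPM with hormone, against 30.9, 36 and 41.9 CPM with vehicle, a log2 fold change of 1.99 (SE 0.33, edgeR adjusted p = 0.191). The receptor gene igf1ra, whose product binds insulin-like growth factors, stood at 63.1, 77 and 72.9 CPM with hormone, against 50.4, 42.9 and 51.3 CPM with vehicle. Both passed DESeq2. The Kit ligand gene kitlga, which in fish supports pigment cells, stood lower, at 75.4, 64.9 and 89.9 CPM with hormone, against 177, 166 and 192 CPM with vehicle. In the Wnt list, 8 of 55 genes had an unadjusted edgeR p under 0.05 on the higher side and 3 on the lower, against 3.7% and 3.18% of all records. The ligand gene wnt7ba, at 4.8, 4.46 and 3.5 CPM with hormone, against 1.98, 1.89 and 1.8 CPM with vehicle, passed DESeq2 on the higher side. The gene sfrp1a, for a secreted Wnt-binding antagonist, passed it on the lower side, at 13.5, 8.59 and 10.1 CPM with hormone, against 22.8, 33.2 and 24.4 CPM with vehicle. The Wnt target gene axin2 had a log2 fold change of 0.46 and did not pass.

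Of 58 nuclear receptor genes outside the thyroid receptors, 6 stood above vehicle in every hormone library and 6 below, against 6.86% and 6.4% of all records. The orphan receptor gene nr2f6b stood at 139, 90.4 and 108 CPM with hormone, against 41.6, 45.5 and 41.6 CPM with vehicle. The estrogen-related receptor gene esrrgb stood near the detection limit with hormone, at 1.2, 0.578 and 0.618 CPM, against 4.04, 4.42 and 4.4 CPM with vehicle. The receptor gene rorcb, of a family that drives clock genes, stood at 79.9, 65.4 and 84.9 CPM with hormone, against 170.4, 153 and 135 CPM with vehicle. These 3 passed DESeq2, and no other gene of the 58 did, against 0.906% of all records higher and 0.688% lower.

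Of 44 clock genes 20 had groups that did not overlap, 8 higher and 12 lower with hormone, against 6.86% and 6.4% of all records. The leucine zipper repressor gene nfil3-6 (zgc:77060) stood at 3112, 3118 and 3211 CPM with hormone, against 902, 1532 and 1003 CPM with vehicle, and its relative nfil3 stood lower, at 8.94, 6.77 and 7 CPM with hormone, against 13.7, 14.5 and 16.7 CPM with vehicle. The activators that share binding sites with them were split as well, with log2 fold changes of 0.83 for dbpb (si:dkeyp-69b9.5), 0.51 for tefa (tef) and -0.97 for hlfb. The gene cry-dash, for a light-dependent DNA repair enzyme, stood at 27.6, 28.7 and 24.5 CPM with hormone, against 16.8, 12.8 and 14.9 CPM with vehicle. The core genes per1b and clocka had log2 fold changes of -0.26 and -0.27. Of the clock list 4 genes passed DESeq2 on the higher side and 2 on the lower, against 0.906% and 0.688% of all records. The labels give no time of day at dissection, so its part was not tested.

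Hypoxia-linked genes stood mostly lower with hormone. Of 41 measured, 27 had negative log2 fold changes, the median was -0.27, and 11 had an unadjusted edgeR p under 0.05 on the lower side (3.18% of all records) and 1 on the higher (3.7%). The hypoxia-inducible factor gene hif1al stood at 27.6, 29.3 and 29.7 CPM with hormone, against 76.5, 60.5 and 70.2 CPM with vehicle (log2 difference -1.26, SE 0.13, edgeR adjusted p = 0.0832). The gene slc2a1b, for a glucose transporter, stood at 45.4, 103 and 81 CPM with hormone, against 178, 172 and 187 CPM with vehicle. The gene cited4a (si:dkey-218l8.1), for a coactivator-binding protein, stood at 71.9, 78 and 85.9 CPM with hormone, against 124, 121 and 124 CPM with vehicle. These 3 were lower in every hormone library and passed DESeq2. Of the whole hypoxia list DESeq2 called 4 genes lower and 1 higher, against 0.688% and 0.906% of all records. For other members the vehicle libraries were uneven. The gene ndrg1b (ndrg1l), a common hypoxia marker, stood at 144, 67.6 and 92.6 CPM with hormone, against 494, 378 and 161 CPM with vehicle, and egln3, for a prolyl hydroxylase that destabilises hypoxia-inducible factors, at 1.2, 1.24 and 0.824 CPM with hormone, against 7.22, 3.79 and 2.1 CPM with vehicle. Vehicle library 3 lay near or within the hormone range for these and for p4ha1b (3.2, 1.24 and 1.75 CPM with hormone, against 12.3, 9.56 and 2.5 CPM with vehicle). The exception on the higher side was ak4, for a mitochondrial adenylate kinase, at 69, 50 and 57.7 CPM with hormone, against 22.3, 24.7 and 18.3 CPM with vehicle.

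Fuel genes stood apart in a few members. Of 39 glycolysis and lactate genes 25 had negative log2 fold changes. On the lower side slc2a1b and pfkfb4b (pfkfb4l), for a regulator of glycolytic flux, passed DESeq2, as 0.688% of all records did. The levels of pfkfb4b were 16.7, 25.4 and 26.3 CPM with hormone, against 45.3, 35.9 and 58.6 CPM with vehicle. The fatty acid oxidation genes hadhaa (hadha) and acads stood above vehicle in every hormone library, with log2 fold changes of 0.94 and 0.68, but neither passed DESeq2. For hadhaa the levels were 53.2, 101 and 94.4 CPM with hormone, against 42.5, 41.2 and 45.5 CPM with vehicle. Among 83 respiratory chain genes 63 had negative log2 fold changes with a median of -0.08, which was 0.01 without hormone library 1. The cytochrome oxidase subunit gene cox4i2 was the member past DESeq2, on the higher side (0.906% of all records). It stood at 330.2, 269.6 and 312 CPM with hormone, against 191, 203 and 193 CPM with vehicle. The mitochondrial genes mipepb, for a peptidase, and letm2, for an inner membrane protein, stood lower, with levels of 39.1, 28.3 and 27.6 CPM with hormone, against 88.2, 84.7 and 120.1 CPM with vehicle for mipepb. For letm2 they were 99.5, 121 and 109.7 CPM with hormone, against 238, 197 and 239 CPM with vehicle.

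Several enzymes, proteases and signalling proteins outside these groups also stood apart. The gene impdh1b, for the rate-limiting enzyme of guanine nucleotide synthesis, stood at 68.3, 73.7 and 66.5 CPM with hormone, against 29.8, 35.4 and 32.3 CPM with vehicle. Its paralog impdh1a had a log2 fold change of -0.73, with groups that overlapped at 124, 56.9 and 70.4 CPM with hormone, against 168, 142 and 106 CPM with vehicle. The gene ulk1a, for a kinase that starts autophagy, stood at 13.7, 19.2 and 18.4 CPM with hormone, against 53.5, 51.9 and 56.1 CPM with vehicle. No other of the 50 autophagy genes passed DESeq2, against 0.906% of all records higher and 0.688% lower. The secreted serine protease gene htra1b stood at 15.5, 8.42 and 10.4 CPM with hormone, against 93.5, 72.3 and 51.3 CPM with vehicle. The protease gene adamts9, whose enzyme cleaves matrix proteoglycans, stood at 1.74, 3.3 and 5.46 CPM with hormone, against 12.8, 9.2 and 13.2 CPM with vehicle. On the higher side, cpn1, for a carboxypeptidase subunit, stood at 17.8, 21.4 and 18.9 CPM with hormone, against 7.06, 7.49 and 8.4 CPM with vehicle, and the small GTPase gene rrad at 35.4, 51.9 and 54 CPM with hormone, against 13.2, 14.6 and 10.8 CPM with vehicle. The actin-binding and signalling protein gene marcksl1b (zgc:85717), among the 200 most abundant records, stood at 167, 279 and 342 CPM with hormone, against 663, 675 and 679.7 CPM with vehicle. The gene osgn1 (zgc:56005), named as an oxidative stress-induced growth inhibitor, stood at 12.8, 19.4 and 19.3 CPM with hormone, against 49.6, 57.2 and 56.4 CPM with vehicle. All of these but impdh1a passed DESeq2.

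The 30 records with the smallest p among those past DESeq2 with groups apart, a mean log2 CPM of 1 or more and a descriptive symbol, 15 on each side, had edgeR adjusted p from 0.0175 to 0.178. With the inner retina level as a covariate 30 of these 30 passed edgeR, and without hormone library 1 20 did. The authors' deposited table marks 28 of them. They were chosen by this contrast, so these counts describe them and are not a test.

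Of 84 chaperone genes, 19 stood above vehicle in every hormone library and 2 below, against 6.86% and 6.4% of all records. The mitochondrial chaperonin genes hspd1 and hspe1 were both higher in every hormone library. For hspd1 the levels were 69.4, 109 and 85.5 CPM with hormone, against 46.5, 43 and 52.8 CPM with vehicle, and for hspe1 37.4, 47.6 and 50.9 CPM with hormone, against 26.2, 25.5 and 28.4 CPM with vehicle. The cochaperone genes dnaja1 (dnaja1l) and dnajb11, the last acting in the endoplasmic reticulum, had log2 fold changes of 0.84 and 0.72. These 4 passed DESeq2 on the higher side along with cdc37 and hspa8b (LOC562935), against 0.906% of all records. The stress-inducible gene hsp70.3 (hsp70), chosen with its values known like the next, stood at 859, 628 and 1076 CPM with hormone, against 909.6, 2899 and 3204 CPM with vehicle. Its cochaperone gene dnajb1b stood at 57.8, 50.4 and 81.7 CPM with hormone, against 59.8, 175 and 178 CPM with vehicle. For both, vehicle library 1 lay within the hormone range while vehicle libraries 2 and 3 were high.

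Of 57 immediate early and cytokine feedback genes 44 had negative log2 fold changes, with a median of -0.33. In every hormone library 2 of them stood above vehicle and 4 below, against 6.86% and 6.4% of all records. DESeq2 called 2 higher, rrad, described above, and socs3b, and 1 lower, fosb, against 0.906% and 0.688% of all records. The gene fosb, for an immediate early transcription factor, stood at 11.2, 7.84 and 15 CPM with hormone, against 27.4, 90.7 and 48.2 CPM with vehicle. The cytokine feedback gene socs3a stood at 33.8, 40.5 and 47 CPM with hormone, against 37.4, 109.7 and 106 CPM with vehicle, whereas its paralog socs3b stood higher, at 11.6, 10.2 and 13.3 CPM with hormone, against 4.76, 6.67 and 5.8 CPM with vehicle. For socs3a vehicle library 1 lay within the hormone range, while fosb and socs3b had groups that did not overlap. The list's mean level in vehicle library 1 was below that in each hormone library. Handling of the tissue is not described by library, so its part was not tested.

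**Figure D4:**
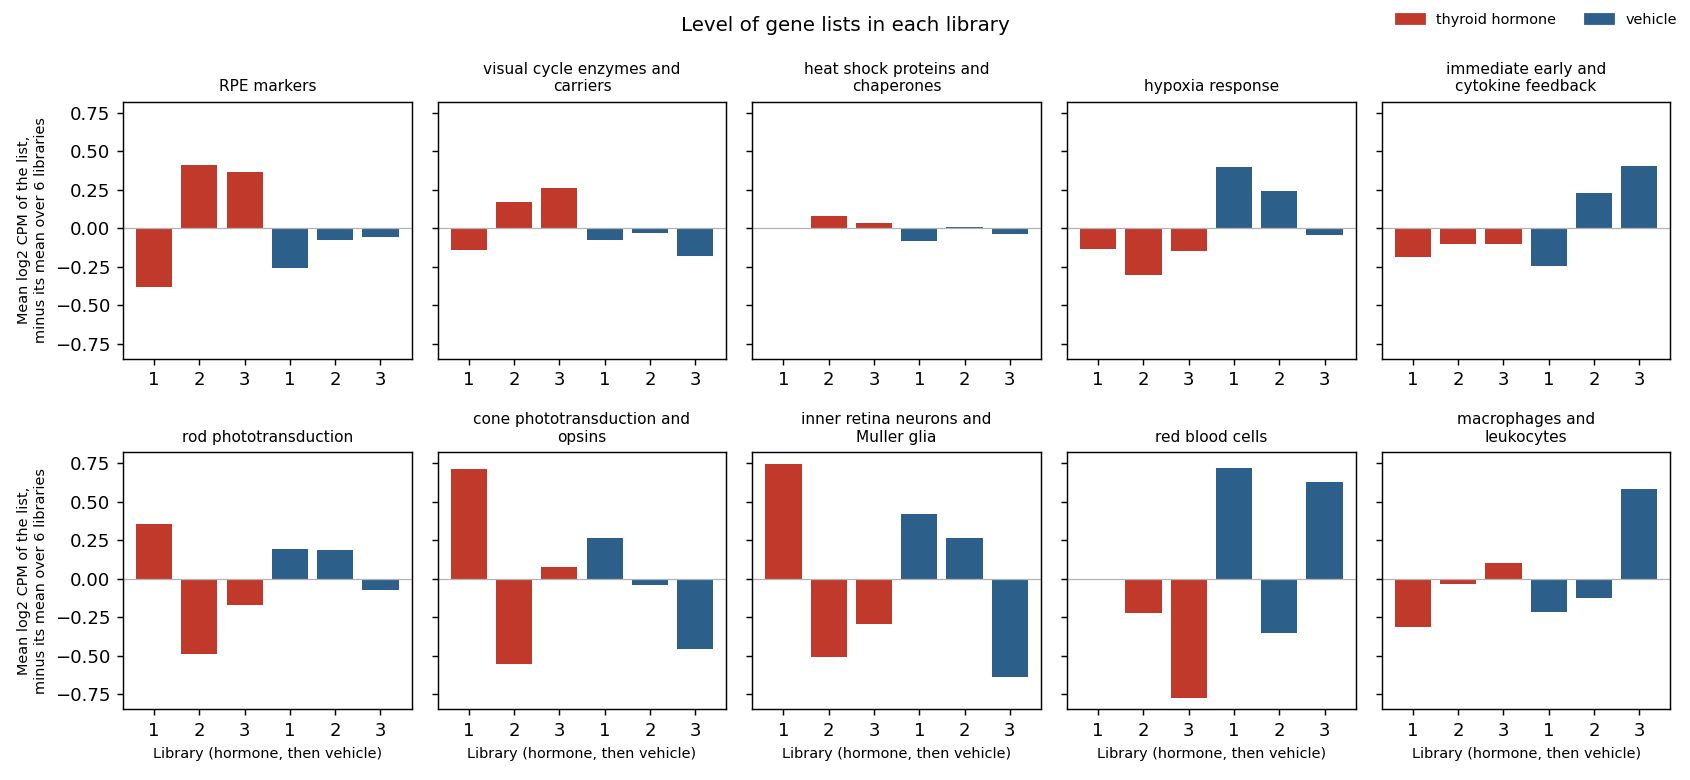
Mean log2 CPM of 10 gene lists in each library, as a difference from the list's mean over the 6 libraries, hormone libraries in red and vehicle libraries in blue. In the RPE, cone and inner retina lists hormone library 1 stands opposite to hormone library 2, and in the red cell list vehicle libraries 1 and 3 stand highest.

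Markers of the RPE and its neighbours were uneven within groups. Of 25 RPE markers 19 had positive log2 fold changes, with a median of 0.43, of 0.27 with the inner retina covariate and of 0.65 without hormone library 1. The melanosome gene pmela stood at 499, 1448 and 1248 CPM with hormone, against 628, 549.7 and 708 CPM with vehicle, with hormone library 1 below all vehicle libraries. The chloride channel gene best1 (LOC560608) stood lower in every hormone library, at 209.6, 483 and 477 CPM with hormone, against 592, 582 and 869.6 CPM with vehicle. The gap junction gene gja1b (cx43) stood at 482, 1218 and 1081 CPM with hormone, against 396, 439.7 and 451 CPM with vehicle, and was not past DESeq2. Of 27 RPE and pigment cell transcription factor genes 0 had an unadjusted edgeR p under 0.05 (3.7% of all records on the higher side and 3.18% on the lower), and 0 passed DESeq2 (0.906% and 0.688%).

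Of 24 rod genes 18 had negative log2 fold changes, with a median of -0.12, and of -0.45 without hormone library 1. In every hormone library 4 of them stood below vehicle and 0 above, against 6.4% and 6.86% of all records. The rhodopsin gene rho, the rod visual pigment, stood at 25010, 29400 and 37550 CPM with hormone, against 41730, 38090 and 52760 CPM with vehicle, lower in every hormone library and not past DESeq2. The gene pde6g, whose product holds the rod phosphodiesterase inactive, stood at 3847, 3458 and 4520 CPM with hormone, against 8873, 7763 and 7932 CPM with vehicle. The gene gngt1, for the gamma subunit of rod transducin, stood at 2638, 2369 and 2979 CPM with hormone, against 4785, 4483 and 4944 CPM with vehicle. Both were lower in every hormone library and passed DESeq2, while the alpha subunit gene gnat1 overlapped at 11120, 6804 and 6692 CPM with hormone, against 10950, 10620 and 9128 CPM with vehicle. Of the cone genes, the green opsin gene opn1mw4 stood at 431, 269 and 404 CPM with hormone, against 136, 76.1 and 41.8 CPM with vehicle. Another green opsin gene, opn1mw3, stood at 1093, 508 and 546 CPM with hormone, against 260, 209 and 340 CPM with vehicle. The calcium sensor genes guca1g and guca1ab.1 (guca1e) stood in opposite directions, with log2 fold changes of 2.02 and -1.67. All of these cone genes passed DESeq2, 3 of the 28 of the list higher and 1 lower, against 0.906% and 0.688% of all records. In the covariate fit opn1mw3 missed the threshold, with an edgeR adjusted p of 0.0793. The median log2 fold change of the cone list was 0.23, and -0.26 without hormone library 1. The opsin copies are close in sequence, so their values are uncertain.

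Most blood genes stood lower with hormone. Of 21 red cell genes 17 had negative log2 fold changes, with a median of -0.66, and of -1.06 without hormone library 1. The 6 red cell markers summed to 1385, 854 and 548 CPM with hormone, against 2604, 959 and 3437 CPM with vehicle. Vehicle library 2 thus stood within the hormone range. The anion exchanger gene slc4a1a stood at 7.47, 7.1 and 3.91 CPM with hormone, against 29.1, 8.75 and 24.7 CPM with vehicle. Of 34 leukocyte genes 27 had negative values, with the integrin gene itgb2, a leukocyte adhesion receptor, at 16.7, 22.5 and 23 CPM with hormone, against 31.5, 39.7 and 48.1 CPM with vehicle and past DESeq2. No fit included the level of blood genes, so its part in the hypoxia list and in other differences was not tested.

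**Figure D5:**
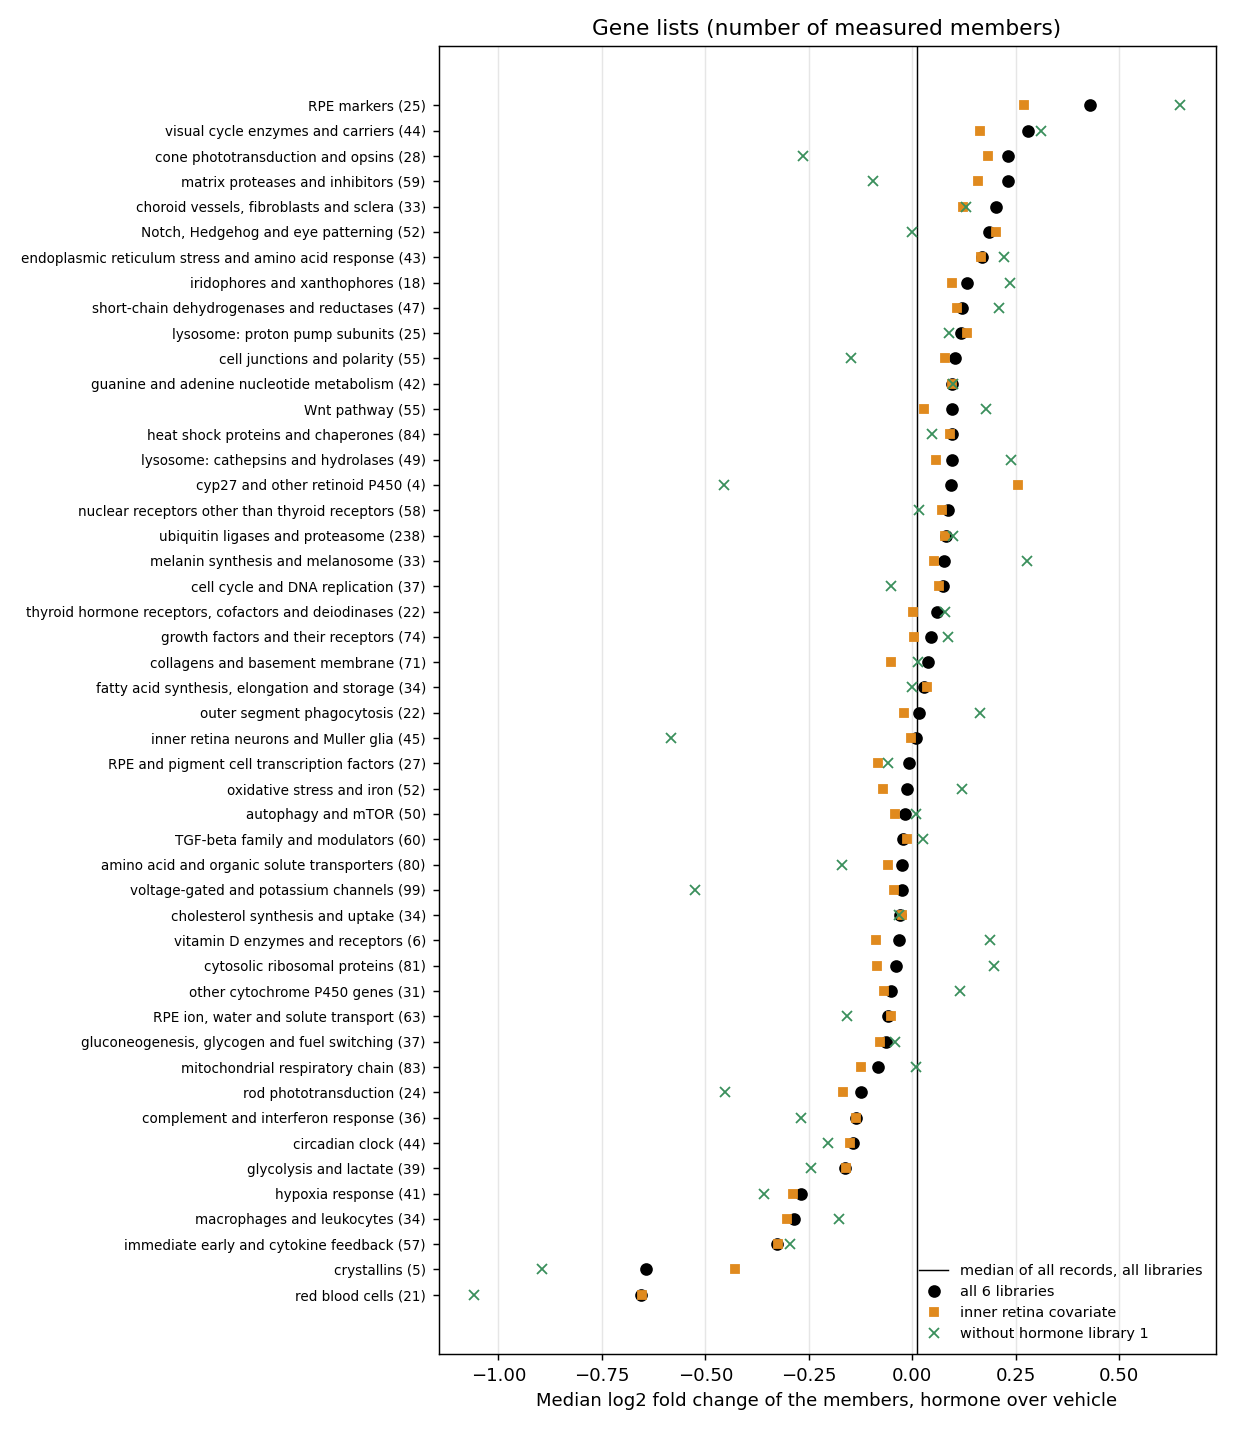
Median log2 fold change of hormone over vehicle for 48 gene lists, with all 6 libraries (black), with the inner retina covariate (orange) and without hormone library 1 (green crosses); the line is the median of all records, 0.01. RPE markers stand highest at 0.43 and red cell genes lowest at -0.66, and the inner retina list lies at -0.58 without hormone library 1.

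Across the 48 lists the medians lay between -0.66 for red cell genes and 0.43 for RPE markers, against 0.01 over all records. Without hormone library 1 the inner retina median was -0.58, and that of 99 voltage-gated and potassium channel genes was -0.52, against -0.03 with all libraries. Cytosolic ribosomal protein genes, 81 in number, had a median of -0.04, and of 0.20 without hormone library 1, and 25 proton pump subunit genes of the lysosome one of 0.12. Both had 0 past DESeq2, against 0.906% of all records higher and 0.688% lower. Among the 37 cell cycle genes ccne2, for a cyclin of the entry into DNA replication, was past DESeq2 on the lower side (0.688% of all records). It stood at 15.5, 9.99 and 12.9 CPM with hormone, against 22.8, 21.5 and 23 CPM with vehicle.

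A few records without a descriptive name, chosen after their values were seen, held differences of similar size. The record LOC100150789 stood at 0.267, 0.33 and 0.618 CPM with hormone, against 15.3, 8.12 and 18 CPM with vehicle. The record LOC100537033 stood at 47.2, 63.5 and 48.8 CPM with hormone, against 4.52, 1.99 and 5.5 CPM with vehicle. Neither overlapped, and their edgeR adjusted p was 0.0571 and 0.0571. The acetylcholine receptor subunit gene chrna3 (LOC568467), likewise chosen, stood at 3.87, 16.9 and 13.8 CPM with hormone, against 0.952, 1.17 and 1.2 CPM with vehicle.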

How the data were processed

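RNA from dissected zebrafish RPE was amplified as total RNA for the libraries, and the 6 libraries shared a lane, per the labels' protocols. The authors deposited whole-number counts per transcript record, with Bowtie 0.12.7 and edgeR named in the submitters' processing notes; the transcript set and genome build are not given in the sources used here. The log2 fold changes and p-values in the authors' deposited table were used only through their mark of called records. A deposited unnamed entry, equal to the sum of the counts of all others in all 6 libraries, was dropped. The table's 8 deposited columns of RPKM, for the same libraries and their group means, were not used.

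Hormone was tested against vehicle with edgeR 4.0.16 (quasi-likelihood, R 4.3.3), with TMM scaling, filterByExpr, which removed 0 records, and Benjamini-Hochberg adjustment over 18315 records at 0.05. The SE was taken as the size of the log2 fold change divided by the root of F. Levels are TMM-scaled CPM, and log2 CPM has a prior count of 2. Alternatives were DESeq2 1.42.0, limma 3.58.1 voom, the likelihood ratio test, other dispersion estimates, scalings, filters and thresholds, the replicate block, the mean of 45 inner retina genes as a covariate, and leaving out each library. The tests were also run on counts simulated from the means and dispersions of these libraries. There DESeq2 called 214 records, of which 52 were unchanged by design. The quasi-likelihood test called 136 with 5 unchanged, and the covariate fit 135 with 7 unchanged. In those counts 50 records each were changed by 1, 2, 3 and 5 on the log2 scale. Apart from library size, all libraries otherwise shared the same means, with no difference in inner retina level. The covariate thus followed nothing in those counts, so its 7 unchanged calls do not measure errors of that fit in these data. The other tests met no shared shift between libraries there either, and the quasi-likelihood test called 136 records there but 1 in these data. The 52 and 5 unchanged calls of DESeq2 and the quasi-likelihood test thus do not measure their errors in these data.

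The members and the 48 gene lists were chosen with earlier results of these data known, so list counts are descriptions. The most abundant record of a symbol stood for the gene. The named genes were cyp27c1, records past the main test, up to 15 on each side with the smallest p among those past DESeq2 whose mean log2 CPM was 1 or more, groups that do not overlap and a descriptive symbol, up to 5 members per list past DESeq2 or with an unadjusted p under 0.05 and no overlap, the 20 most abundant records, and abundant records that differed by 1 or more on the log2 scale. Records at 3 counts or fewer in a whole group and at least 30 in every library of the other were sought, and none was found. The genes rlbp1b, dio2, rxraa, tefa, hlfb, per1b, clocka, ndrg1b, p4ha1b, impdh1a, hsp70.3, dnajb1b, socs3a, pmela and best1 lie outside the rule and were chosen after their values were seen. Symbols are the present ones of each accession in RefSeq's table for GRCz12tu, which matched 12528 of the 18315; an older symbol in the deposited table stands in parentheses, except for mipepb, listed there under a clone name.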

Additional observations from a re-analysis of the deposited data

How the results depend on the processing

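Counts of calls depended on the test. Against 1 record higher and 0 lower in the main test, DESeq2 gave 166 higher and 126 lower, the edgeR likelihood ratio test 123 and 94, the inner retina covariate 232 and 214, total count scaling 5 and 3, and an adjusted p under 0.1 gave 9 and 6. The authors' deposited calls, added after seeing the data, gave 96 and 75. The higher count was 0 with limma voom, with the replicate block and at an adjusted p under 0.01. RLE scaling, no filter, a mean count of at least 50, a log2 size of at least 1, the older dispersion estimate, which is the default of the main test, and the newer one, added after seeing the data, left 1 and 0. With 1 library left out, counts ranged from 0 to 79 higher and from 0 to 26 lower, and the calls came from the fit without hormone library 1. The log2 fold change of cyp27c1 ranged from 4.85 to 5.49 over all alternatives, without 1 library too. Its adjusted p passed with DESeq2 (5.18), the likelihood ratio test (5.18), total count scaling (5.08), the covariate (5.05) and without hormone library 1 (5.49). Deviations of same-numbered libraries from their group means had correlations of 0.463, -0.395 and 0.105. Those of unlike-numbered libraries ranged from -0.577 (hormone 1 with vehicle 3) to 0.619 (hormone 2 with vehicle 3). With 3 libraries per group these cannot decide whether the numbers pair them. The share of counts in the 3 most abundant records rose with the number in both groups. It was 9.14, 12.93 and 22.04% with hormone and 8.7, 13.21 and 17.97% with vehicle. The replicate block gave cyp27c1 5.10 with an edgeR adjusted p of 0.205. Of 183 other records, 157 had a value in 17 alternatives and 26, left out by a mean count of at least 50, in 16. All 183 kept their sign in those. They were the records of the rule, except those named only as among the 20 most abundant, and those of the text. Most were chosen by this contrast, with non-overlapping groups or a small p, so their kept signs are not a test. Some abundant records left aside changed sign, such as gnat2, at 0.17 with all libraries and -0.32 without hormone library 1. The cause of shifts between settings was not tested.

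A total of 3 counts makes up 0.239 to 0.451 CPM of a library's unscaled total, and differences between levels below it are not detectable at this depth.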
